A study of Mus musculus with 6 samples.

Results

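The T cell receptor alpha and beta V segments were taken as the rows of the deposited expression table whose Ensembl identifier has the GENCODE M21 gene type TR_V_gene and a symbol that starts with Trav or Trbv. The rule found 125 of the 28914 rows, 103 Trav segments on mouse chromosome 14 and 22 Trbv segments on chromosome 6. The annotation lists 130 such segments, and the other 5, which are Trav segments, had no row. All 125 were above 0 in at least 1 library and 97 were above 0 in all 6.

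RNA was sequenced from splenic CD4 T cells, sorted from mice 12 weeks of age and not stimulated further. The mice were NOD, a strain prone to autoimmune diabetes. The first group was Blimp-1 deficient, with the label Blimp1 knockout, and is called CKO. The second overexpressed Blimp-1 and is called BTg, and the third was the control, WT. Each group had 2 libraries, all 3 groups shared the strain, age, tissue and sorted cell type, and the series title concerns Blimp-1 and interleukin-21 in autoimmune disease. The sources used here do not name the promoter of the transgene, the Cre driver or the deleted exons. No label says whether both libraries of a group stem from different mice, and every test measures only the spread between libraries.

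Each alpha beta T cell carries a receptor whose variable domains are built during thymic development by joining 1 V segment to a J segment, with a D segment between them in the beta chain. The V segment encodes most of the variable domain, including the first and second complementarity-determining loops, which mainly touch the MHC molecule. Because a clone keeps its rearranged segments, the V transcripts of a bulk sample reflect both which clones are present and how much receptor RNA each cell holds. In such samples fewer cells of a type and less RNA per cell cannot be told apart.

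Prdm1, which encodes Blimp-1, was examined first. It stood at 0.849 and 0.669 FPKM (reads scaled to gene length and to the reads of the library) in the libraries labelled CKO, at 19.6 and 30.1 FPKM in BTg, and at 0.458 and 0.628 FPKM in WT. BTg was above both other groups, but the libraries labelled CKO were not below WT. These values sum over the whole gene and cannot check the loss of part of it, so each direction given for CKO rests on the label. The libraries held 14958458 to 17799091 reads on genes. Summed over 6 neutrophil genes, the first CKO library carried 5581 FPKM and the second 82.8, against 2.79 and 3.00 in BTg and 12.4 and 48.9 in WT. Summed over 5 plasma cell genes, the levels were 912 and 238 FPKM in the libraries labelled CKO, 135 and 87.0 in BTg, and 157 and 152 in WT. The CD8 T cell genes Cd8a and Cd8b1 together stayed between 0.218 and 0.844 FPKM in all 6, and Cd4, the sorted marker, stood at 53.8 and 93.7 FPKM in the libraries labelled CKO, 99.4 and 103 in BTg, and 93.7 and 81.7 in WT.

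Several of the most used segments, the 3 whose usage was ordered across the groups, and Trbv12-2, the family neighbour of one of these, are shown by the last 30 bases of their transcripts, 5′ to 3′, from the GENCODE M21 transcripts of GRCm38. This end holds the codon for the conserved second cysteine of the variable domain and the start of the third complementarity-determining loop, where the J or D segment is joined. The capitals mark the letters TGTGC, a cysteine codon with the first bases of the next codon, where these were found.
Trbv13-2: catcagtgtacttcTGTGCcagcggtgatg
Trbv13-1: catctttgtacttcTGTGCcagcagtgatg
Trbv13-3: cagctgtatatttcTGTGCcagcagtgatg
Trbv16: agcggtgtatcttTGTGCaagcagcttaga
Trbv15: agctgtgtatctgTGTGCcagcagtttagc
Trbv1: cagaaccttgtactgcacctgcagtgcaga
Trbv12-1: tctgctatgtacttcTGTGCcagctctctc
Trbv12-2: tctgccgtgtacttcTGTGCcagctctctc
Trav3-3: actcagccgcgtacttctgcgcagtcagtg
Trav5-4: actcagccatgtacttcTGTGCtgcaagtg
Trav7-3: actctgctctctacctcTGTGCagtgagca
TGTGC occurred on the coding strand of this 30-base window in 19 of 22 Trbv segments (86.4%) and in 81 of 103 Trav segments (78.6%), and on the opposite strand in 0 of either. Over all protein-coding transcripts of the annotation the share was 2.84%, taken from the last 30 bases of the whole transcript. That end can lie outside the coding sequence, whereas V segment transcripts end within it, so the regions are not alike. Trbv1 and Trav3-3 are among the V segments without these letters in the window. The transcripts of the 3 Trbv13 segments matched at 86.1 to 90.6% of their aligned bases, and those of Trbv12-1 and Trbv12-2 at 88.3%.

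Usage of the beta locus was concentrated in a few segments, and the leading segment was the same in every library. Trbv13-2 (ENSMUSG00000076469, chromosome 6, 41121396 to 41121832 on GRCm38), a segment of the V beta 8 group that is common in mouse T cells and a frequent partner of the invariant receptor of NKT cells, was first throughout. It took 20% and 22.5% of all Trbv FPKM in the libraries labelled CKO, 19% and 20.3% in BTg, and 18.5 and 22.3% in WT. The 3 groups overlapped. With Trbv13-1 and Trbv13-3, its neighbours in the family, it made up 37.3 and 41.8% in the libraries labelled CKO, 35.7 and 35.4% in BTg, and 36.3 and 37.7% in WT. The second CKO library was the highest for the family, and the CKO and WT libraries overlapped.

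The next segments by mean share of FPKM were Trbv16, Trbv13-1, Trbv1 and Trbv13-3. In reads over all libraries Trbv1, with 6366, was above Trbv16, with 6024. Trbv16 (ENSMUSG00000076473, 41151740 to 41152230), the V beta 11 segment of the older nomenclature, took 11.6 and 9.40% in the libraries labelled CKO, 10.9 and 10.4% in BTg, and 12.5 and 11.8% in WT. Both WT libraries were above all the others. Trbv13-1 took 10.1 and 11.3% in the libraries labelled CKO, 9.73 and 9.14% in BTg, and 11.0 and 9.41% in WT, and only the CKO and BTg libraries were apart. Trbv13-3 took 7.29 and 7.96% in the libraries labelled CKO, 6.94 and 6.02% in BTg, and 6.75 and 6.02% in WT, with both CKO libraries above the rest. The 8 segments that lie together from Trbv12-1 to Trbv16, a block chosen after its values were seen, summed to 61.7 to 66.2% of the locus in every library. At the other end of the scale, Trbv21 had 0 to 5 reads per library.

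**Figure D1:**
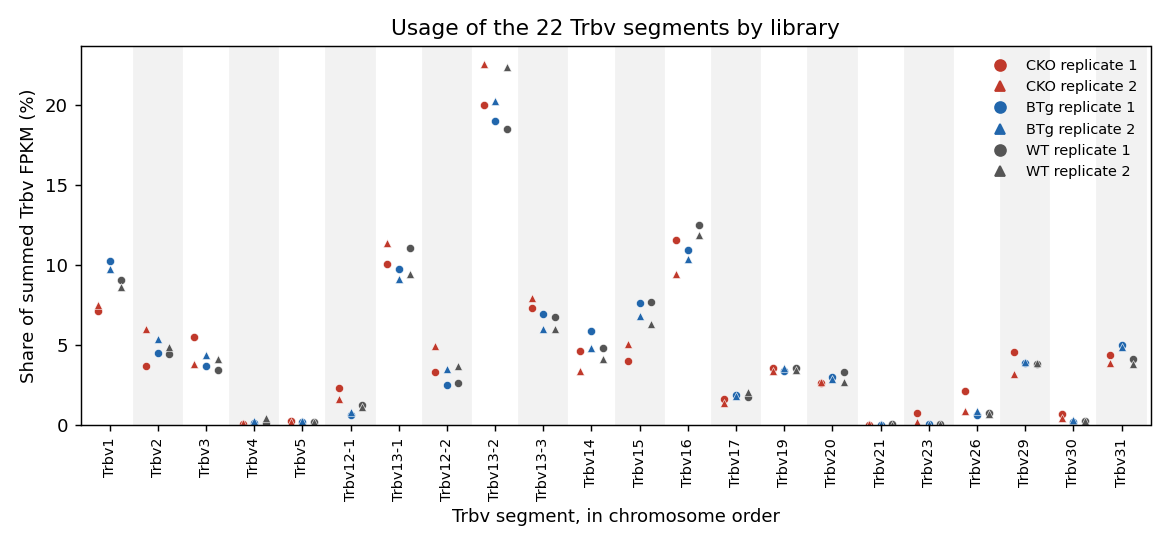
Share of the summed Trbv FPKM of a library (vertical axis, %) for each of the 22 Trbv segments in chromosome order, with 1 marker per library and colours for CKO, BTg and WT. Trbv13-2 leads in all 6 libraries with 18.5 to 22.5%, and the spread between libraries of a group is often as wide as that between groups.

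Some beta segments were used at nearly the same share in all 6 libraries. Trbv19, the V beta 6 segment, took 3.56 and 3.39% in the libraries labelled CKO, 3.40 and 3.58% in BTg, and 3.53 and 3.45% in WT. Its mean share was 3.48 ± 0.120% in CKO, 3.49 ± 0.127% in BTg and 3.49 ± 0.0574% in WT (SD, n = 2 each). Trbv2, the V beta 4 segment, varied more within CKO, with 3.69 and 5.99%, than BTg, with 4.52 and 5.34%, or WT, with 4.46 and 4.89%. The CKO libraries enclosed all the others. Trbv31 lies on the minus strand downstream of the beta constant genes, unlike the other 124 segments, which are on the plus strand, and joins by inversion. It took 4.35 and 3.87% in the libraries labelled CKO, 5.01 and 4.87% in BTg, and 4.15 and 3.83% in WT, so both BTg libraries were the highest.

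Among the 69 segments with a mean share of at least 0.5%, 3 had shares ordered across the 3 groups with no overlap. These were Trbv1, Trbv12-1 and Trav7-3, the last of which was chosen for this order. With 2 libraries per group some segments can fall into such an order without a group difference. No share over all genes was taken for it, so the count of 3 is a description only. Trbv1 (ENSMUSG00000076461, 40891229 to 40891885), the V beta 2 segment at the upstream end of the locus, took 7.11 and 7.48% in the libraries labelled CKO, 10.2 and 9.75% in BTg, and 9.05 and 8.60% in WT. It was lowest in CKO and highest in BTg. In reads, Trbv1 made up 9.08% of Trbv reads (exact 95% binomial interval 8.38 to 9.82) and 9.55% (8.91 to 10.2) in the libraries labelled CKO, 12.9% (12.3 to 13.5) and 12.3% (11.5 to 13.0) in BTg, and 11.5% (11.0 to 12.0) and 10.9% (10.2 to 11.7) in WT. The intervals of CKO and BTg did not overlap, while those of the second CKO and the second WT library met at about the same value, and that of the second BTg library overlapped those of both WT libraries. Such intervals cover counting error only, since the reads carry no molecular identifiers.

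Trbv12-1 (ENSMUSG00000095574, 41113550 to 41114067), a V beta 5 segment, had the opposite order. It took 2.29 and 1.65% in the libraries labelled CKO, 0.644 and 0.827% in BTg, and 1.23 and 1.11% in WT. It was highest in CKO and lowest in BTg, and its mean share was 1.69 times that of WT in CKO and 0.628 times that of WT in BTg. In reads, the shares were 2.31% (exact interval 1.95 to 2.71) and 1.66% (1.40 to 1.97) in the libraries labelled CKO, 0.640% (0.504 to 0.800) and 0.819% (0.626 to 1.05) in BTg, and 1.23% (1.07 to 1.41) and 1.12% (0.874 to 1.41) in WT. The interval of the second BTg library overlapped that of the second WT library, and the interval of the second CKO library just reached those of WT. Its level was 15.6 and 14.5 FPKM in the libraries labelled CKO, 9.62 and 7.74 FPKM in BTg, and 22.3 and 8.98 FPKM in WT, so the order held for its share of the locus and not for its level. Its neighbour Trbv12-2 took 3.31 and 4.93% in the libraries labelled CKO, 2.49 and 3.51% in BTg, and 2.65 and 3.68% in WT, with all groups overlapping. With 2 libraries against 2, an exact two-sided permutation test of a single share cannot give a p below 0.333, so no such test is reported.

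Trbv15, the V beta 12 segment, was the beta segment with the largest difference in mean share between CKO and WT. It took 3.98 and 5.06% in the libraries labelled CKO, 7.60 and 6.80% in BTg, and 7.65 and 6.30% in WT. Both CKO libraries were below the other 4, and BTg and WT overlapped. Its level was 27.1 and 44.3 FPKM in the libraries labelled CKO, 114 and 63.7 FPKM in BTg, and 138 and 50.8 FPKM in WT. By limma over all genes its log2 difference of CKO against WT was −1.25 (SE 0.58), which did not pass the threshold of adjusted p under 0.05.

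A few beta segments were highest in the first CKO library. Trbv26, the V beta 3 segment, took 2.12% of Trbv FPKM in the first CKO library and 0.901% in the second, 0.632 and 0.864% in BTg, and 0.752 and 0.696% in WT. Only the first CKO library was clearly high. In reads, its share there was 1.97% (exact interval 1.64 to 2.35), against 0.581 to 0.839% in the other 5. Trbv23, chosen after its values were seen, had 41 and 14 reads in the libraries labelled CKO, 9 and 6 in BTg, and 8 and 5 in WT. Its shares were 0.745 and 0.199% in the libraries labelled CKO, 0.0870 and 0.0943% in BTg, and 0.0547 and 0.0895% in WT. Both CKO libraries were above the rest, the first by a wide margin. The first CKO library is also the one with the high neutrophil sum given above; the part of other cells in these shares was not tested.

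Usage of the alpha locus was spread over many more segments. Trav3-3 (ENSMUSG00000094828, chromosome 14, 53665929 to 53666506 on GRCm38) was the leading Trav segment in every library by share of FPKM. In reads, Trav7-4 was above it in the first CKO library, with 136 reads against 123. It took 7.01 and 6.72% of all Trav FPKM in the libraries labelled CKO, 7.97 and 8.71% in BTg, and 7.98 and 8.38% in WT. Both CKO libraries were below the other 4, and its mean share was 6.86 ± 0.203% in CKO against 8.18 ± 0.282% in WT (SD, n = 2 each). In reads, its exact 95% intervals were 4.68 to 6.66% and 4.63 to 6.17% in the libraries labelled CKO. In WT they were 5.82 to 7.10% and 5.85 to 7.70%, so each CKO interval overlapped each WT interval. Trav5-4 (ENSMUSG00000095607, 53704007 to 53704514) took 4.64 and 4.81% in the libraries labelled CKO, 4.84 and 5.74% in BTg, and 5.79 and 5.57% in WT. Here CKO was again lowest, although the lowest BTg library was close to it.

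Trav14-1, Trav9d-1 and Trav8d-1 completed the 5 alpha segments with the largest mean share of FPKM. Trav14-1 took 2.94 and 4.35% in the libraries labelled CKO, 5.16 and 4.60% in BTg, and 4.11 and 6.09% in WT, with CKO and WT overlapping. Trav9d-1 took 5.42 and 3.70% in the libraries labelled CKO, 4.30 and 4.16% in BTg, and 3.68 and 3.44% in WT. Both WT libraries were the lowest, the nearer CKO library by a small margin. Trav8d-1 took 4.78 and 4.23% in the libraries labelled CKO, 3.78 and 3.81% in BTg, and 3.23 and 4.59% in WT, which enclosed all but the first CKO library.

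**Figure D2:**
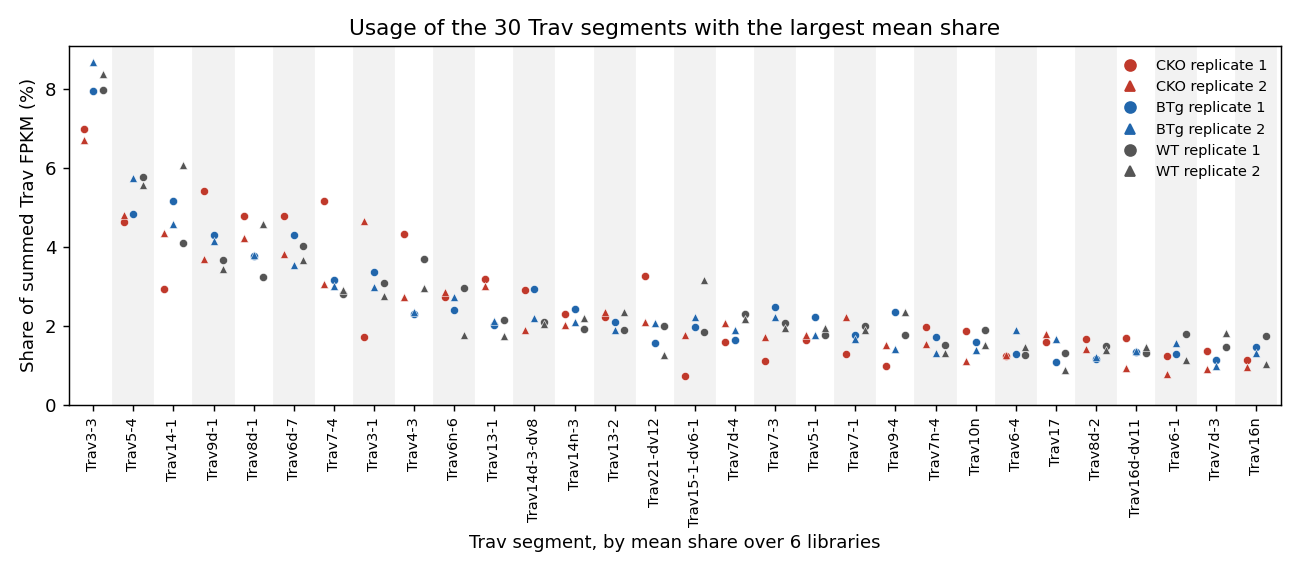
Share of the summed Trav FPKM of a library (vertical axis, %) for the 30 Trav segments with the largest mean share, with 1 marker per library and colours for CKO, BTg and WT. Trav3-3 is highest in every library with 6.72 to 8.71%, and shares fall off gradually along the axis.

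Among alpha segments with a mean share of at least 0.5%, those whose groups did not overlap and whose mean shares differed most from WT were Trav7-4, Trav13-1, Trav15-1-dv6-1 and Trav3-3 for CKO, and Trav9d-1, Trav4-2, Trav4-3 and Trav7d-3 for BTg. Trav13-1 took 3.18 and 3.00% in the libraries labelled CKO, 2.02 and 2.14% in BTg, and 2.15 and 1.75% in WT, so both CKO libraries were high. Trav7-4 took 5.17 and 3.06% in the libraries labelled CKO, 3.18 and 3.00% in BTg, and 2.81 and 2.91% in WT. The first CKO library was well above the rest, and the second lay between the BTg libraries. Trav15-1-dv6-1, which can also join to delta segments, took 0.737 and 1.77% in the libraries labelled CKO, 1.98 and 2.22% in BTg, and 1.84 and 3.17% in WT. The first CKO library was the lowest, and the second lay just under the lowest WT library.

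In the BTg against WT set, Trav4-2 took 1.39 and 1.25% in the libraries labelled CKO, 1.26 and 1.603% in BTg, and 0.962 and 0.904% in WT, with both WT libraries the lowest. Trav4-3 took 4.34 and 2.74% in the libraries labelled CKO, 2.31 and 2.36% in BTg, and 3.70 and 2.98% in WT, with both BTg libraries the lowest. Trav7d-3 took 1.36 and 0.900% in the libraries labelled CKO, 1.14 and 0.995% in BTg, and 1.46 and 1.82% in WT, with both WT libraries the highest. Trav7-3 took 1.11 and 1.72% in the libraries labelled CKO, 2.49 and 2.23% in BTg, and 2.07 and 1.95% in WT, which is the order of Trbv1.

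Counted over the 52 Trav and 17 Trbv segments with a mean share of at least 0.5%, shares without overlap ran in both directions in each comparison. In CKO against WT, 10 Trav segments were higher and 12 lower, and 3 Trbv segments were higher and 4 lower. Over all genes tested, 18% were higher and 0.908% lower when every gene was divided by the summed Trav and Trbv FPKM of its library. That divisor is 1 sum over both loci, whereas a share is taken within its own locus, and it carries the V total of a library into every other gene. The V total was lower in CKO than in WT by the mean only, since the second CKO library was above the second WT library in both sums. In BTg against WT, 9 Trav segments were higher and 10 lower, and 3 Trbv segments were higher and 2 lower, beside 1.98% of all genes higher and 5.89% lower. In BTg against CKO, 12 Trav segments were higher and 9 lower, and 6 Trbv segments were higher and 4 lower, beside 1.78% of all genes higher and 56% lower. The 3 Trbv segments higher in CKO than in WT were Trbv12-1, Trbv13-3 and Trbv26, and the 4 lower were Trbv1, Trbv15, Trbv16 and Trbv17, the last chosen after its values were seen.

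Some alpha segments mark particular T cells. Trav11 and Trav11d encode the alpha chain variable domain of invariant NKT cells, which recognise lipids on CD1d. Trav11 had 0 reads in both libraries labelled CKO and in both BTg libraries, and 14 and 1 in WT. Zero reads still allow a share of up to 0.137 and 0.0878% of Trav reads in the libraries labelled CKO and of up to 0.0641 and 0.0796% in BTg (3 reads of the total). Trav11d had 7 and 34 reads in the libraries labelled CKO, 17 and 22 in BTg, and 58 and 22 in WT, or 0.306 and 0.959%, 0.343 and 0.555%, and 0.958 and 0.722% of Trav FPKM in the same order of libraries. CKO and WT overlapped, and both BTg libraries were below both WT libraries in share. In reads, the exact 95% interval of the second BTg library (0.366 to 0.883%) overlapped that of the second WT library (0.474 to 1.14%). By level the second BTg library was above the second WT library, at 2.65 against 2.59 FPKM. The transcript of Trav11d is contained in that of Trav11 without a difference, so the split of reads between them is uncertain. Of 4 invariant NKT genes, Zbtb16, Klrb1c and Cd160 were below both WT libraries in both BTg libraries by level, while Klra1 was above them. Zbtb16, the transcription factor of these cells, stood at 0.0230 and 0.0691 FPKM in the libraries labelled CKO, 0.0189 and 0.0307 in BTg, and 0.0467 and 0.0893 in WT. Klra1 stood at 0.0591 and 0.142 FPKM in the libraries labelled CKO, 0.682 and 0.754 in BTg, and 0.161 and 0.218 in WT. The 4 genes summed to 0.318 and 0.683 FPKM in the libraries labelled CKO, 0.911 and 0.970 in BTg, and 0.936 and 0.674 in WT, so Klra1 made up most of the BTg sums. These 4 genes were under the filter and were not tested. Trav11d passed it and was not called. Its log2 difference was −0.85 (SE 0.52) in CKO against WT and −0.59 (SE 0.52) in BTg against WT.

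Trav1 encodes the alpha chain variable domain of mucosal-associated invariant T cells. It had 8 and 76 reads in the libraries labelled CKO, 28 and 17 in BTg, and 48 and 33 in WT. The second CKO library was the highest and the first the lowest in share, with 0.209 and 1.28% in the libraries labelled CKO, 0.338 and 0.257% in BTg, and 0.474 and 0.648% in WT. In the same second CKO library Trav12-3 took 1.89%, against 0.667 to 0.991% in the other 5, and Trav12n-3 took 1.38%, against 0.438 to 0.730%. Trav21-dv12 was instead highest in the first CKO library, with 3.26%, against 1.26 to 2.1% in the other 5. Trav5d-4, known from insulin-specific T cells of NOD mice, had 1 and 2 reads in the libraries labelled CKO, 3 and 1 in BTg, and 7 and 1 in WT. Its transcript is identical to that of Trav5n-4, and these counts are too few to compare.

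Many Trav segments exist in near-identical copies, because a stretch of the alpha locus is repeated, and the copies carry the letters d and n in their symbols. To show where they differ, a 60-base stretch of the 2 most used alpha segments is set beside its copies. It is the stretch with the most differing bases, so the copies look less alike there than along the whole transcript. Capitals stand at the bases that differ from the most used copy or from its duplicates.
Trav3-3: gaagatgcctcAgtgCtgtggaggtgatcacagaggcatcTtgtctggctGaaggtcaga
Trav3d-3: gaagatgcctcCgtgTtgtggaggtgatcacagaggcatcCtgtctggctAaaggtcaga
Trav3n-3: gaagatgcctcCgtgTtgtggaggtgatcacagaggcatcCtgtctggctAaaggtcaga
Trav5-4: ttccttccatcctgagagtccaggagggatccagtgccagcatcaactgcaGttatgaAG
Trav5d-4: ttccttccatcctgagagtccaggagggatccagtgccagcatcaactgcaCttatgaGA
Trav5n-4: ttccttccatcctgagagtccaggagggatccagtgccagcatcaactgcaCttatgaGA
Along the aligned transcripts Trav3-3 matched Trav3d-3 at 410 of 419 bases and Trav5-4 matched Trav5d-4 at 337 of 343 bases. Trav3d-3 and Trav3n-3 were identical to each other, as were Trav5d-4 and Trav5n-4.

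Because a read that fits several copies may be counted for 1 of them, for all or for none, a share of a single copy is less certain than that of a family. Of the 103 Trav segments, 33 had no 50-base window that occurs in no other V segment, and 20 of these had a mean share under 0.1%. Their median mean share was 0.0590%. The 28 segments with some but under 50% unique windows had a median of 0.708%, the 34 with at least 50% but not all unique had 1.26%, and the 8 with all windows unique had 0.519%. By contrast, 19 of the 22 Trbv segments were unique in every window and the other 3 in all but a few. In 17 pairs of Trav segments 1 transcript was identical to or contained in the other. Of the 15 such pairs of a d and an n copy, 13 had more reads in the d copy, such as Trav6d-7 with 837 reads over all libraries and Trav6n-7 with 2. The sources used here do not say how multiply mapped reads were counted.

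**Figure D3:**
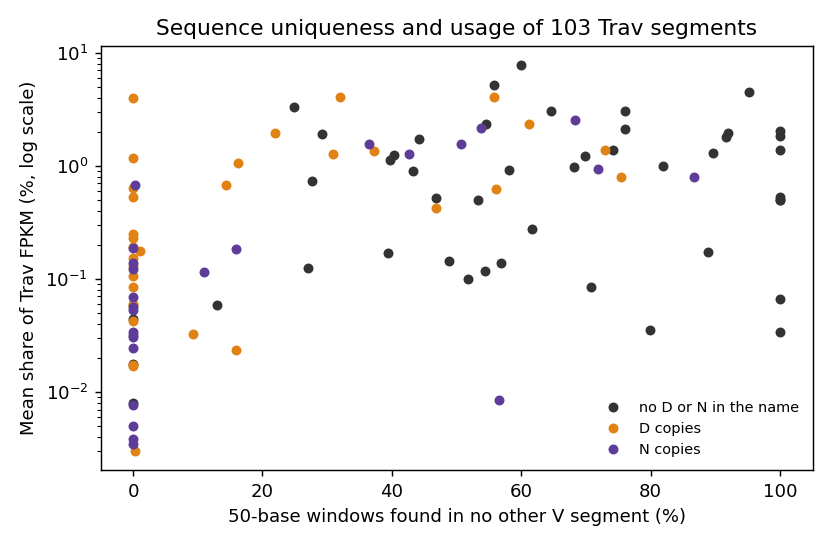
Mean share of Trav FPKM over the 6 libraries (vertical axis, %, log scale) against the percentage of a segment's 50-base windows found in no other V segment (horizontal axis), 1 point for each of the 103 Trav segments, coloured by copy set. The 33 segments at 0% unique windows have a median mean share of 0.0590%, the lowest of the 4 classes given in the text.

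Summed by copy set the alpha locus looked alike in all 6 libraries. These sets follow the names of GRCm38, the C57BL/6 genome, and which copies the NOD mice carry was not examined. The split of reads between identical d and n copies is also uncertain. Segments without a copy letter took 57.0 and 59.4% of Trav FPKM in the libraries labelled CKO, 58.9 and 60.01% in BTg, and 59.4 and 61.1% in WT. Segments of the d copy took 30.7 and 27.3% in the libraries labelled CKO, 28.02 and 26.7% in BTg, and 27.3 and 28.3% in WT. Segments of the n copy took 12.4 and 13.2% in the libraries labelled CKO, 13.1 and 13.3% in BTg, and 13.3 and 10.6% in WT. The groups overlapped in CKO against WT and in BTg against WT for each set. The 10 segments with dv in their symbol, which can be joined in either the alpha or the delta chain, took 8.85 to 10.3% of Trav FPKM over the 6 libraries. Trbv4 and Trbv5 overlap another annotated gene, so reads counted for these 2 segments are uncertain.

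The evenness of usage differed little between groups. The effective number of segments, the exponential of the Shannon entropy of the shares, was 44.8 and 51.0 for Trav in the libraries labelled CKO, 48.2 and 48.9 in BTg, and 49.4 and 47.6 in WT. The CKO libraries enclosed the other 4. For Trbv it was 14.4 and 13.3 in the libraries labelled CKO, 13.4 and 13.7 in BTg, and 13.5 and 13.2 in WT, with the first CKO library the highest. The 10 most used Trav segments of a library held 41.2 to 45.5% of the locus and the 10 most used Trbv segments 79.0 to 83.7%.

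The difference in usage between a pair of libraries was taken as the percentage of usage that would have to move to another segment for the shares to match. For Trav, libraries of the same group differed by 17.2% in CKO, 9.31% in BTg and 10.8% in WT, while the 12 pairs from different groups differed by 9.40 to 18.5%, with a median of 12.7%. For Trbv, libraries of the same group differed by 10.1% in CKO, 4.68% in BTg and 6.76% in WT, and pairs from different groups by 4.34 to 11.9%, with a median of 8.86%. For Trbv the CKO libraries thus differed from each other about as much as from the other groups. For Trav this held for the first CKO library only. The second was nearer to every BTg and WT library, at 11.6 to 14.1%, than to the first. The 5 Trav pairs that include the first CKO library differed by 15.7 to 18.5%, and the other 10 by 9.31 to 14.1%. The 5 Trbv pairs that include it differed by 8.84 to 10.1%, within the 4.34 to 11.9% of the other 10.

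The summed level of the V segments also varied between libraries. The Trav segments summed to 231 and 360 FPKM in the libraries labelled CKO, 584 and 477 FPKM in BTg, and 612 and 359 FPKM in WT. The Trbv segments summed to 681 and 875 FPKM in the libraries labelled CKO, 1494 and 937 FPKM in BTg, and 1811 and 806 FPKM in WT. Both BTg libraries exceeded both CKO libraries in each sum, and the WT libraries differed from each other as widely as the groups did. These values rest on 2193 to 5763 Trav reads and 6234 to 16693 Trbv reads per library, 0.0123 to 0.0324% and 0.0350 to 0.0939% of all reads.

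The constant genes, which are spliced to the rearranged V segments, moved with these sums. Trac, the alpha constant gene, stood at 95.2 and 120 FPKM in the libraries labelled CKO, 182 and 151 in BTg, and 200 and 115 in WT. Trbc1 stood at 276 and 297 FPKM in the libraries labelled CKO, 453 and 325 in BTg, and 545 and 269 in WT, and Trbc2 at 386 and 445, 743 and 476, and 872 and 397 FPKM in the same order of libraries. The first WT library was the highest for all 3 genes. The ratio of the Trav sum to Trac was 2.43 and 2.99 in the libraries labelled CKO, 3.21 and 3.16 in BTg, and 3.06 and 3.12 in WT. It was lowest in the first CKO library and near the same value in the other 5. The first CKO library was also lowest in the T cell genes, whose sum over 7 genes was 1029 and 1356 FPKM in the libraries labelled CKO, 2050 and 1658 in BTg, and 1804 and 1221 in WT; the part of other cells in the V sums was not tested.

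**Figure D4:**
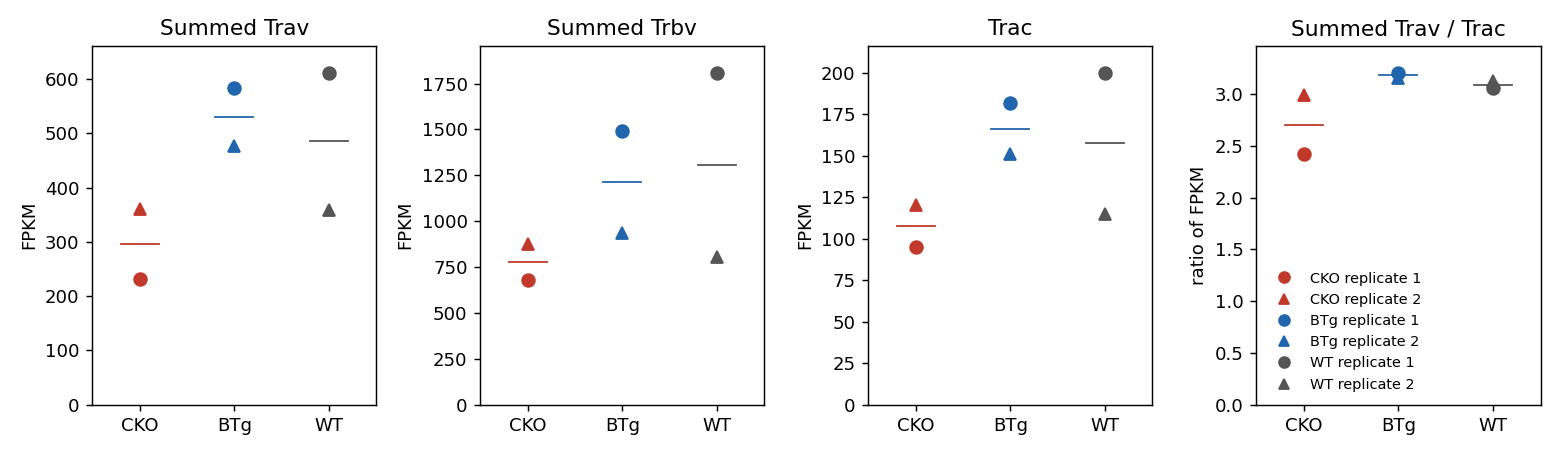
Summed Trav FPKM, summed Trbv FPKM, Trac FPKM and the ratio of the Trav sum to Trac (vertical axes, 1 panel each), with 1 marker per library and a line at the mean for CKO, BTg and WT. The first WT library has the largest Trav and Trbv sums, 612 and 1811 FPKM, and the first CKO library the smallest, 231 and 681 FPKM.

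No single V segment passed the test in any comparison. The test was limma on log2(FPKM + 1) over the 10798 genes that reached 1 FPKM in 2 or more libraries, adjusted over all of them. Of the members, 62 Trav and 21 Trbv segments passed this filter, and 1 Trav segment did so through 1 group alone. This was Trav8-1, which passed through BTg, so the filter itself favoured a higher level in BTg for it. In CKO against WT 0 of these 83 segments were called, beside 0% of all genes. In BTg against WT and in BTg against CKO 0 of 83 were called, beside 0.0185% of all genes in each. limma voom on the recovered reads also called 0 V segments in each comparison.

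In CKO against WT 75 of the 83 segments had a lower mean and 8 a higher one, with a median log2 difference of −0.52, while the median over all genes tested was −0.03 and 54.6% of them were lower. Counted over all 125 segments with no filter, 102 were lower and 22 higher. At an unadjusted p under 0.05, 11 segments were lower, beside 1.09% of all genes, and 1 was higher, beside 3.11% of all genes. The higher one was Trbv23, with 1.14 (SE 0.40). The FPKM of the libraries did not overlap for 35 segments that were lower in CKO, beside 8.96% of all genes, and for 1 that was higher, beside 11.5%. Without the first WT library 55 of the 83 were lower, with a median of −0.13 beside −0.11 over all genes, and without the first CKO library 64 were lower, with a median of −0.33 beside 0.11. When every library was rescaled to the same V segment total 38 of the 83 were lower, with a median of 0.02, and the median of all genes moved to 0.46.

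In BTg against WT 53 segments had a higher mean and 30 a lower one, with a median log2 difference of 0.09, beside 0.02 over all genes. At an unadjusted p under 0.05, 0 segments were higher, beside 0.769% of all genes, and 0 were lower, beside 0.852%. The FPKM did not overlap for 5 higher segments, beside 14.7% of all genes, and for 2 lower ones, beside 10.4%. The 5 include Trav8-1, which passed the filter through BTg alone. The direction depended on single libraries. Without the first WT library 75 of the 83 were higher, without the second WT library 18 were, and without the first BTg library 34 were. Among the named segments, Trbv13-2 stood at 284 and 190 FPKM in BTg and at 335 and 180 FPKM in WT, and Trav3-3 at 46.5 and 41.5 FPKM in BTg and at 48.9 and 30.1 FPKM in WT, with the groups overlapping for both.

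In BTg against CKO 75 segments had a higher mean and 8 a lower one, with a median log2 difference of 0.66, beside 0.06 over all genes, of which 56.1% were higher. At an unadjusted p under 0.05, 22 segments were higher, beside 2.78% of all genes, and 1 was lower, beside 6.01%. The FPKM did not overlap for 58 higher segments, beside 17.8% of all genes, and for 4 lower ones, beside 21.8%. Trav8-1, which passed the filter through BTg alone, is among the 22 and among the 58. The smallest adjusted p among the members was that of Trav14-3, chosen after its values were seen, with a log2 difference of 1.18 (SE 0.21; limma adjusted p = 0.242, and 0.0767 to 1 over the alternatives). It stood at 6.66 and 4.99 FPKM in BTg and at 1.83 and 2.16 FPKM in the libraries labelled CKO. Between 71 and 77 of the 83 stayed higher when any 1 library was left out, with a median of 0.46 to 0.87. After rescaling to the same V segment total 49 were higher, with a median of 0.10, and the median of all genes moved to −0.47. This comparison and CKO against WT share the libraries labelled CKO, and it shares the BTg libraries with BTg against WT.

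**Figure D5:**
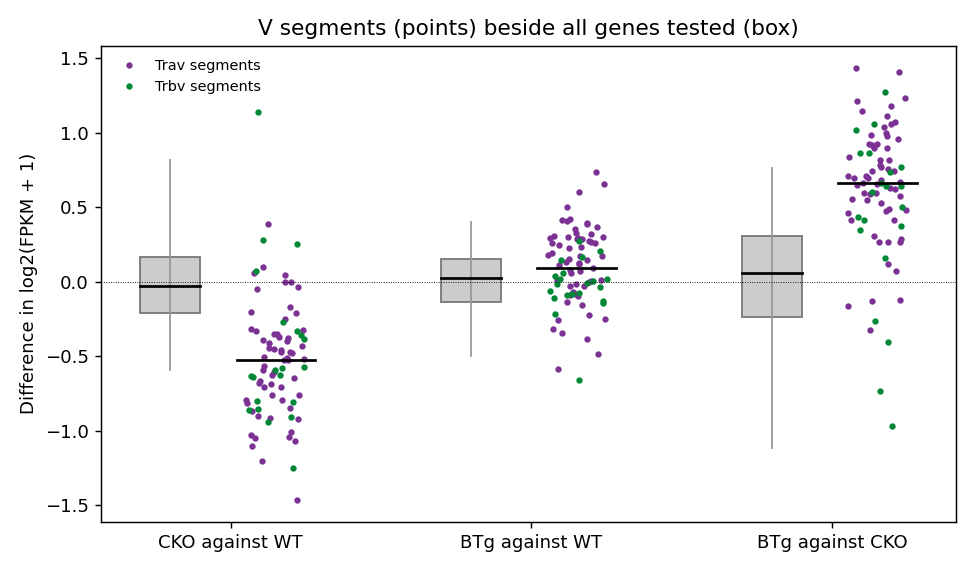
Difference in log2(FPKM + 1) (vertical axis) for CKO against WT, BTg against WT and BTg against CKO, with 1 point for each of the 83 V segments tested beside a box of all 10798 genes tested. The points lie mostly below 0 in the first comparison (median −0.52) and mostly above 0 in the last (median 0.66), and 0 of them passed the threshold of limma.

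The other genes of the receptor had mean differences in the same directions as the segments, also without a call. Of 9 tested members of a list of receptor chains and signalling partners, all 9 were lower in CKO than in WT by the mean, with a median log2 difference of −0.42, 8 were higher in BTg than in WT (0.13) and 8 were higher in BTg than in CKO (0.62); limma called 0 of 9 in each. Without the first CKO library, the one with the high neutrophil sum, 6 of the 9 were lower in CKO than in WT (median −0.33), and without the first WT library 7 were (−0.10). Cd3e, a chain of the CD3 complex, stood at 36.9 and 77.5 FPKM in the libraries labelled CKO, 80.2 and 100.3 in BTg, and 60.1 and 78.0 in WT, with the second CKO library inside the WT range. Cd28, the costimulatory receptor, stood at 6.45 and 13.0 FPKM in the libraries labelled CKO, 8.07 and 9.43 in BTg, and 10.5 and 10.5 in WT, with the CKO libraries on either side of WT. The part of other cells in these levels was not tested. Of 7 tested members of a list of V(D)J recombination genes, 3 were higher in CKO than in WT and 4 lower (median −0.10), 4 were higher in BTg than in WT and 3 lower (0.03), and 4 were higher in BTg than in CKO and 3 lower (0.13); limma called 0 of 7 in each. Rag1 and Rag2, the recombinase that joins V segments in the thymus, were under the filter, at up to 0.0292 FPKM for Rag1 and 0.0159 FPKM for Rag2.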

How the data were processed

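The authors deposited 1 table of FPKM values, with 28914 genes by Ensembl identifier and 1 column per library, for 2 CKO, 2 BTg and 2 WT libraries. Per the labels' protocols, RNA was extracted with TRIzol and libraries were made with a NEBNext Ultra kit. The submitters' processing notes name the build GRCm38 and the tools featureCounts 1.6.0, HISAT2 2.1.0 and Trimmomatic 0.38, with no settings. The sources used here do not give the read length, the strand setting or the handling of multiply mapped reads. GRCm38 is the C57BL/6 genome and the mice were NOD, and V segments that differ between the strains were not examined.

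Names, positions and transcript sequences came from GENCODE M21. Taking as length the median span of the annotated transcripts on the genome, all values above 0 were whole reads within 0.01, which gave read counts per library. FPKM thus divide by that span, introns included, so a level is compared between genes only as a share of the locus on this scale. The share of a segment is its FPKM over the summed Trav or Trbv FPKM of the library. The groups came from the sample titles, and the number of the second BTg library rests on its column name alone.

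Tests used limma 3.58.1 in R 4.3.3 on log2(FPKM + 1), with a filter of 1 FPKM in 2 or more libraries, a trend and all 6 libraries in 1 fit, called at a Benjamini-Hochberg adjusted p under 0.05. A difference on this scale understates that of low genes. The code was tested on simulated data. Named segments were the 5 most used per locus, those called, the 2 per locus and direction with the largest difference in mean share without overlap against WT, up to 6 that stood out in 1 library, and a fixed set. The members and lists were chosen with earlier results of these data known. Alternatives were other pseudocounts, filters, scalings and variance models, voom on recovered reads, a replicate block, families, merged exon length and leaving out each library.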

Additional observations from a re-analysis of the deposited data

How the results depend on the processing

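The result that no V segment was called held under most alternatives. The exceptions were Trav7n-5 with no filter on low values (BTg against CKO, 1 segment, log2 difference 0.32, limma adjusted p = 0.0251) and Trav15-1-dv6-1 without the second CKO library, in CKO against WT (−2.19, limma adjusted p = 0.0450) and in BTg against CKO (2.16, limma adjusted p = 0.0275), so leaving out 1 library gave 0 to 1 segments called in each of these comparisons. Over all settings the limma adjusted p of Trav15-1-dv6-1 ran up to 1 in each, and Trav7n-5 was tested in that setting alone. Trav7n-5 had 0 and 0 reads in the libraries labelled CKO, 2 and 2 in BTg, and 1 and 1 in WT. Its transcript is identical to that of Trav7d-5, so the placing of these reads is uncertain. They are too few for its call to be read as a difference. Rescaling to the V segment total left 38 segments lower in CKO than in WT and 49 higher in BTg than in CKO, and leaving out 1 library gave 55 to 80 lower in CKO than in WT, 18 to 75 higher in BTg than in WT and 71 to 77 higher in BTg than in CKO. Of 9 receptor list genes, 9 were lower in CKO than in WT, and 6 to 9 without 1 library. These direction counts under alternatives, and merged exon length, were added after seeing the data.

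Over all genes, limma called 0 in CKO against WT (454 at an unadjusted p under 0.05), 65 with no filter, 148 after rescaling to the V segment total and 0 to 81 without 1 library. It called 2 in BTg against WT, 46 with no filter, 1 with a filter of 5 FPKM, 0 with quantile normalization, 9 after rescaling, 4 with voom and 0 without any 1 library. It called 2 in BTg against CKO, 81 with no filter, 5 with a filter of 5 FPKM, 0 with quantile normalization, 337 after rescaling, 7 with voom and 0 to 255 without 1 library, 255 without the second CKO library. The cause of these changes was not tested.

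With the replicate number as a block, limma called 0 genes in BTg against WT, 0 in BTg against CKO, 0 in CKO against WT and 0 V segments in each. Deviations of same-numbered libraries from their group means correlated at 0.17 to 0.47 over 10798 genes and 0.18 to 0.38 over 83 V segments. There are only 2 numbers, and no label names a shared mouse or day. In the order CKO, BTg and WT, the first libraries had 6234, 11880 and 16693 Trbv reads beside 439, 1024 and 1214 reads on the Trbj1 cluster of J segments. The second had 7990, 7325 and 6351 beside 1601, 1686 and 1306. Each first library thus held more Trbv reads per Trbj1 read than each second one. The cause of this shift by number was not tested.

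Of the 69 segments with a mean share of at least 0.5%, 29 had shares not overlapping in CKO against WT and 24 in BTg against WT. With 2 libraries against 2 many segments can separate without a group difference. No share over all genes was taken on this within-locus scale, so these counts are a description only. Families in place of segments gave 12 and 13, and leaving out 1 library gave 39 to 57 and 43 to 50, where a lone library overlaps less often by construction. The effective number for Trbv was 0.49 higher in CKO than in WT, −0.078 by families, and −0.04 to 1.02 without 1 library. Without 1 library the difference ranged from −3.70 to 2.48 for Trav in CKO against WT, from −0.89 to 0.97 for Trav in BTg against WT and from 0.03 to 0.34 for Trbv in BTg against WT. Of 60 differences in share of named segments, 59 kept their sign with recovered reads and 59 with merged exon length, and of 240 without 1 library 198 did. Of the 125 segments, 29 had under 20 reads over all libraries, 28 of them Trav, which limits what can be said of them.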

Other observations

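J segments, which the V segments are joined to, had reads of their own. The 51 Traj rows together had 618 and 2391 reads in the libraries labelled CKO, 2015 and 2622 in BTg, and 1711 and 1691 in WT. The first CKO library was the lowest by a wide margin. In the beta locus, 58.3 and 63.7% of J reads lay in the Trbj1 cluster in the libraries labelled CKO, 63.2 and 67.6% in BTg, and 59.7 and 64.1% in WT. The groups overlapped, and in each group the first library was the lower. Trbj2-7 had the largest mean share of Trbj FPKM over the 6 libraries, with 19.1 and 17.3% in the libraries labelled CKO, 18.8 and 14.8% in BTg, and 18.6 and 15.8% in WT. In the second BTg library Trbj1-5 was above it, with 16.6%. The ratio of Trbc1 to Trbc2 was 0.714 and 0.667 in the libraries labelled CKO, 0.610 and 0.682 in BTg, and 0.625 and 0.678 in WT.

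V segments of the gamma locus, which CD4 T cells rarely use, had 109 and 197 reads over 7 rows in the libraries labelled CKO, 49 and 66 in BTg, and 184 and 169 in WT. Both BTg libraries were below the other 4. The 5 delta V rows had 61 and 118 reads in the libraries labelled CKO, 60 and 59 in BTg, and 137 and 108 in WT, and Trdc, the delta constant gene, stood at 1.10 and 3.65 FPKM, 1.26 and 1.96 FPKM, and 1.77 and 3.44 FPKM in the same order of libraries. The 20 rows of alpha and beta V pseudogenes had 96 and 154 reads in the libraries labelled CKO, 201 and 228 in BTg, and 285 and 147 in WT. These differences were not tested.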
